A study of Mus musculus with 8 samples.

Results

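The array used to profile tissues of lead-exposed mice carries 4449 probes that bear no gene name and are called after the stretch of genome they were designed for. They were chosen by that name alone (chromosome, start, end and a letter F or R for the strand, with or without the prefix lincRNA), and they make up 4449 of 56605 non-control probes. Together they stand for 4061 locus strands at 3229 loci, of which 1236 carry probes for the F strand, 1161 for the R strand and 832 for both. Probes of named genes (37852) and probes of annotated long non-coding RNA genes (4804) on the same arrays served for comparison.

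Long intergenic RNAs are transcribed from the ground between protein-coding genes, and many are spliced and polyadenylated like messenger RNAs without coding for a protein. As a class they are known for low abundance and for expression restricted to a tissue or cell type, above all brain and testis. A few have established roles: Xist silences an X chromosome, Neat1 holds nuclear paraspeckles together, Meg3 and Rian come from an imprinted cluster. Most have only a position for a name, and an array probe then reads whatever RNA carries its letters on its strand. A microRNA binds its targets mainly through its seed, the bases near its 5′ end, and the circular RNA Cdr1as, abundant in brain, is known for its many sites for miR-7.

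Male mice drank distilled water (control), 100 mg/L lead acetate (low dose) or 1000 mg/L lead acetate (high dose) for 3 weeks. The question behind the series was how lead changes the expression of transporter genes in brain, kidney and liver. There were 8 groups with 1 array each: brain and kidney at control, low and high dose, and liver at control and high dose. A low-dose liver sample was not analysed here, and the labels give neither strain nor age, nor say whether a sample was 1 animal or a pool. RNA came from small pieces of tissue, so fewer cells of a type and less RNA per cell cannot be told apart.

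A level below is the log2 processed signal of a probe minus the 75th percentile of its array, so that 0 marks a probe as bright as that percentile, and the level of a probe was set only against the same probe on other arrays. Classes of probes were described by the distribution of their levels. The 75th percentile was at 919 to 954 intensity units in brain, 729 to 782 in kidney and 427 to 435 in liver. Between 53.4% and 67.1% of spots per array were well above background by the scanner software's own test. The tissue labels were checked on marker lists. Summed signals of 8 brain markers, in units of the 75th percentile, were 268 to 287 on brain arrays and at most 26.6 elsewhere, those of kidney markers 1370 to 1440 on kidney arrays and at most 1.43 elsewhere. Those of liver markers were 5770 and 5670 on liver arrays, 166 to 225 on kidney arrays and at most 0.354 on brain arrays. Some markers of other cell types moved with dose within a tissue: the sum of 12 genes of sperm formation was 5.14, 5.51 and 15.7 on the control, low-dose and high-dose brain arrays and 9.89, 7.82 and 29.0 on the kidney arrays, with Odf1, a structural gene of the sperm tail, above background on no array. The sum of 10 striatal markers was 61.8, 187 and 39.6 on the 3 brain arrays, and that of 10 choroid plexus markers was 5.73, 4.83 and 1.81. That of 8 hippocampal markers was 17.5, 12.6 and 15.6, with median levels of -0.32, -2.29 and -0.77. Pituitary markers (6 genes, Tshb above background nowhere) summed to 2.44, 0.917 and 0.854 in brain. On the kidney arrays adrenal markers (7 genes, of which 6, 3 and 5 were above background) summed to 4.96, 0.868 and 0.962, and markers of the urinary lining (7 genes, Upk3b above background nowhere) to 0.726, 2.40 and 2.41.

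The locus-named probes are 60 bases long. Several of them share short runs of letters, and since the results turn on these runs, examples are printed here as the array files give them, 5′ to 3′, all named by mm9 locus. In the first set the capitals mark the run GTCTTCCC. These 5 probes and the R-strand probe of the chr13 locus were between 6.74 and 8.84 log2 units higher in brain than in another tissue, or were detected in brain alone.

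chr5:52998788-53010250_R: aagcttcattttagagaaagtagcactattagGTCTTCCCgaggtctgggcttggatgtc
chr3:127170996-127201096_F: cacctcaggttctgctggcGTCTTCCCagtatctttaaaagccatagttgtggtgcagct
chr7:71093563-71095094_F: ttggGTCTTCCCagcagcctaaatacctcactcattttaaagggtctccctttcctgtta
chr5:121759042-121789992_R: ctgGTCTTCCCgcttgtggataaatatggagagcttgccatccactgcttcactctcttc
chr17:22815742-22828592_R: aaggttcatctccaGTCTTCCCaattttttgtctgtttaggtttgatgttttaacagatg
chr13:70745306-70837331_R: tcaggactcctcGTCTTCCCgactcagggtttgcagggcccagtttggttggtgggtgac

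The first 7 letters of that run are the reverse complement of bases 2 to 8, the seed, of both mouse miR-7 forms, shown with the seed in capitals as RefSeq gives them (GRCm38.p6). Below them stands a probe named after an expressed sequence tag at chrX:58438815-58438874 on the F strand, which is no locus-named probe but is the probe of the array with 2 copies of the 7 letters, in capitals.

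mmu-miR-7a-5p: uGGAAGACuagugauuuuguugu
mmu-miR-7b-5p: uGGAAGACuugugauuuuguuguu
tag probe on chrX: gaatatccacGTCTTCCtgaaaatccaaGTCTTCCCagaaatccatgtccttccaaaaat

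A second set carries alternating GT or AC letters, in capitals; these were the brightest in liver and in brain, respectively.

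chr17:71242333-71273533_F: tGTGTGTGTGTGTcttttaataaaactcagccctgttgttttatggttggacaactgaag
chr9:51905865-51911474_R: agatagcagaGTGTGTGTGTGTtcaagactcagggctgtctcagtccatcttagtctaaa
chr5:52461266-52541416_R: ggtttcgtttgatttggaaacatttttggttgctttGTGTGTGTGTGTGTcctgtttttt
chr11:60728207-60745369_R: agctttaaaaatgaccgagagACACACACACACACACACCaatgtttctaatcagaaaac

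Another set was bright on all 8 arrays. Capitals mark runs of 3 or more C, and the last probe, with few C, is given for contrast.

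chr14:78924115-78938125_F: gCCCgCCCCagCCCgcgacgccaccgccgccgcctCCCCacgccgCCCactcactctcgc
chrX:138967807-138968413_R: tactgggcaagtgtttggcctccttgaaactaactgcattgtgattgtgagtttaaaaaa

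The last set holds neither GTCTTCC nor a repeat of 4 GT or AC units, and at most 30% C. Such probes, which may hold short runs of C, are called plain below (3855 of 4449). They are the plain probes the tissue and dose results turn on, in the order brain, kidney, liver and then exposure.

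chr3:146629425-146649125_F: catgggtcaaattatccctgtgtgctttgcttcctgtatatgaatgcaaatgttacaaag
chr7:66874527-67012170_R: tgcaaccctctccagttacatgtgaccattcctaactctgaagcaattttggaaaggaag
chr8:67552315-67561235_R: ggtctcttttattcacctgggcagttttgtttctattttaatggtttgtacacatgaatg
chr11:96175764-96176029_F: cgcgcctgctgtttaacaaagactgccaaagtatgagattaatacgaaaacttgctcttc
chr19:36699712-36763966_R: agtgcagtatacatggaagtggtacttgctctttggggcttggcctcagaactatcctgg
chr9:78107225-78118850_F: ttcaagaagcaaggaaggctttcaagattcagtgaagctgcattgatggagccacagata
chr9:78104935-78116974_F: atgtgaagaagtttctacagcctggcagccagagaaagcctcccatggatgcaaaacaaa
chr16:23992037-24001037_R: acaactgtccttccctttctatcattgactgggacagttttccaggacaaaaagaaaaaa

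The loci ranged from 62 to 538251 bases in length, with a median of 7207 and quartiles of 698 and 21044. They lay on 20 chromosomes, from 95 probes on chromosome 19 to 343 on chromosome 1, with 174 on the X and 0 on the Y chromosome. Of the 4449 probes, 4358 had a position inside their named locus and on its strand, and 91 had no position in the files. Most locus strands (3745) had 1 probe and 316 had at least 2, up to 6.

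Fewer locus-named probes were detected than probes of named genes in each tissue. On the control, low-dose and high-dose arrays 52.1%, 54.6% and 56.7% of them were well above background in brain and 49.4%, 45.3% and 47.5% in kidney, and on the control and high-dose liver arrays 41.8% and 42.1%. Probes of named genes reached 71.2%, 72.9% and 74.1% on the brain arrays, 67.8%, 65.5% and 67.8% on the kidney arrays and 59.3% and 59.9% on the liver arrays. The gap was -18.6 ± 1.14 percentage points (SD over 8 arrays), and the ranges of the probe classes did not overlap within any tissue. Annotated long non-coding RNA genes stood lower still, at 32.7% to 36.2% in brain, 27.4% to 30.1% in kidney and 24.7% to 25% in liver. The locus-named probes therefore lay between annotated non-coding genes and named genes on each array.

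**Figure D1:**
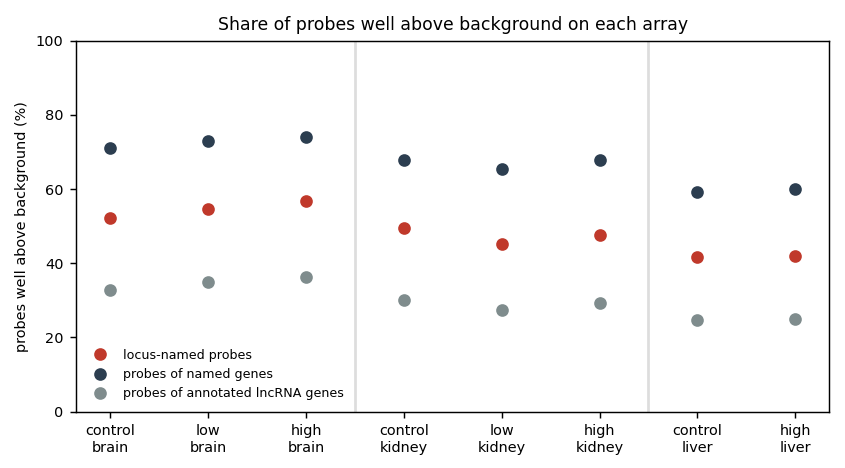
Share of probes well above background, in percent, on each of the 8 arrays for locus-named probes, probes of named genes and probes of annotated long non-coding RNA genes. Locus-named probes sit between 41.8% and 56.7%, below probes of named genes and above annotated long non-coding RNA genes on every array.

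Across arrays, 1528 locus-named probes (34.3%) were well above background on all 8 and 1492 (33.5%) on none. Among probes of named genes 52.4% were on all 8 and 17.4% on none, and among annotated long non-coding RNA genes 17.4% and 51.6%. No locus-named probe was saturated on any array. The highest tissue level of a detected locus-named probe was also lower: 19% of them reached level 0 or more, against 45.6% of probes of named genes, and 19.3% stayed below -4, against 9.13%.

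Detection followed the letters of the probe. Of the 714 locus-named probes with at most 15% C, 35.1% were well above background on an average array, and the share rose over the next bins through 37.9%, 44.3%, 57.4% and 79.4% to 93.5% of the 155 probes with more than 35% C. Over the same bins it went from 65.1% to 92.9% in named genes and from 21.0% to 82.7% in annotated long non-coding RNA genes. The gap to named genes was thus widest among probes poor in C, and in the richest bin locus-named probes stood at or above named genes. A higher share of A went with lower detection (84.4% in the lowest bin, 28.1% in the highest), while G showed little trend (53.3% in the lowest bin, 44.5% to 51.3% in the others). These are descriptions over probes of different loci, and the part of probe chemistry in them was not tested.

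**Figure D2:**
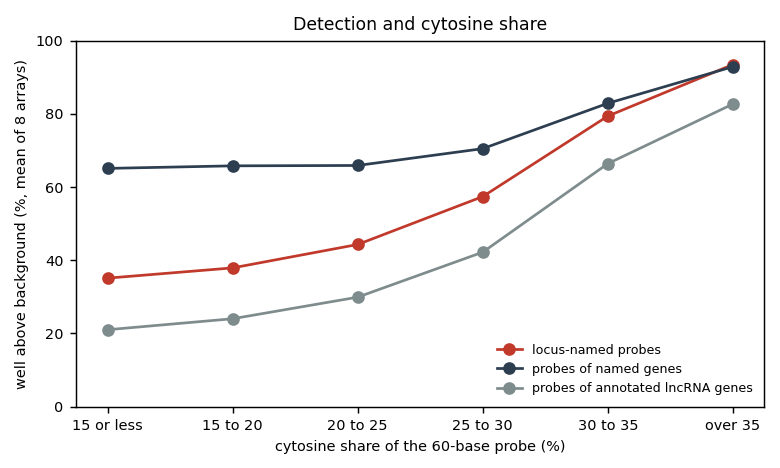
Percent of probes well above background (mean of the 8 arrays) against the share of C in the 60 bases, in bins, for locus-named probes, probes of named genes and annotated long non-coding RNA genes. Locus-named probes go from 35.1% to 93.5%. In the last bin named genes stand at 92.9% and annotated long non-coding RNA genes at 82.7%.

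The brightest probes showed the same bias. The 20 locus-named probes with the highest mean level had a median of 33.3% C (15% to 70%), against 23.3% over all locus-named probes and 20% over the others on the array. All 20 were well above background on 8 arrays, and their tissue means spanned a median range of 1.25. The probe of chr14:78924115-78938125_F, with 63.3% C, read 7.35, 7.28 and 7.29 on the brain arrays in order of dose, 7.65, 7.55 and 7.52 on the kidney arrays and 8.41 and 8.39 on the liver arrays. The liver arrays stood highest on this scale, but without scaling the tissue means of the log2 signal were 17.18 in brain, 17.13 in kidney and 17.15 in liver, so that order rests on the scaling. The A- and T-rich probe of chrX:138967807-138968413_R, with 15% C, read 6.69, 6.68 and 6.61 in brain, 8.21, 7.95 and 8.07 in kidney, with 8.48 and 8.44 in liver, so brightness was not limited to C-rich probes.

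A small set of locus-named probes shared long runs with probes of named genes. This search was added after values had been seen. A run of 20 or more identical letters on the same strand was found for 23 of them, 6 at overlapping positions (Hook3, Tusc3, Pvt1, Snx6, Rian and Mir100hg) and 17 with the gene's probe elsewhere in the genome. Of these 17, 14 (82.4%) were well above background on all 8 arrays, against 1511 (34.1%) of the 4426 locus-named probes with no such run. The 14 gene probes were on all 8 arrays as well, and 13 of the 14 pairs had the same highest tissue (all 14 without scaling). Detected locus-named probes and their nearest gene beyond 50 kb shared it in 40.2% of pairs (51.8% without scaling). The 2 Ifitm3 pairs use the same gene probe, so the pairs are not all separate.

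In the Ifitm3 and Mthfs pairs both probes rose from brain through kidney to liver. The pair with different highest tissues under scaling was chr8:91569369-91594119_R, highest in brain, and Smg5, highest in liver. The locus-named probes paired with Btnl10, Nrp2 and Plekha6 carry the AC or GT repeats counted below. Ifitm3, an interferon-induced membrane protein that restricts virus entry, shared 26 letters with chr5:96591892-96606467_F and chr14:55433382-55452757_R. The chr5 probe read 0.61, 0.46 and 0.75 in brain, 3.28, 3.42 and 3.48 in kidney, then 5.73 and 5.64 in liver. The Ifitm3 probe read 0.32, 0.34 and 0.38, then 2.29, 2.49 and 2.55, then 6.39 and 6.22, so both rose from brain through kidney to liver with no overlap between tissues. Mthfs, an enzyme of folate metabolism, shared 50 letters with chr9:88575075-88611650_R, whose levels were 1.81, 1.76 and 1.70 in brain, 3.69, 3.85 and 3.83 in kidney, with 4.18 and 4.28 in liver. The Mthfs probe read 1.44, 1.44 and 1.32, then 3.46, 3.47 and 3.62, then 4.02 and 3.94. Rps29, a ribosomal protein gene, shared 28 letters with chr7:108209996-108216032_R, and Mif, a cytokine gene, shared 20 with chr19:56820850-56837925_R. Which of the RNAs these locus-named probes read was not tested.

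Length and surroundings of the locus mattered less than composition. Detection rose from 38.1% of probes in loci under 500 bases to 54.3% in loci over 30000 bases. It was 58.8% for the 205 probes whose locus also holds a gene probe on the same strand, 52.8% for 203 with one on the opposite strand alone and 48.0% for the other 4041.

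Tissue specificity was counted among the 2475 locus-named probes (55.6%) that were well above background on every array of at least 1 tissue, the filter used for all tests across probes. A total of 246 were found in brain and on no array of the other tissues, 50 in kidney and 26 in liver, together 13.0%. The share was 11.9% among probes of named genes and 24.5% among annotated long non-coding RNA genes. Split by the probe's highest level, locus-named probes were found in a single tissue less often than named genes in each of 5 bins, from 50.3% against 57.6% in the dimmest to 3.74% against 5.36% in the brightest. The pooled share of 13.0% was thus above that of named genes while every bin was below it. With the scanner's weaker flag (positive and significant) the pooled order turned, at 3.73% against 4% in named genes. On control arrays alone the pooled share was 23.4%, against 17% in named genes. With plain probes alone it was 15.1%, against 12.3% in plain probes of named genes.

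The range over tissues was narrower as well. Among probes detected on all 8 arrays, the brightest and the dimmest tissue differed by 2 log2 units or more in 13.0% of the 1528 locus-named probes, in 28.1% of named genes and in 18.1% of annotated long non-coding RNA genes. By bins of level the shares were 6.15%, 8.17%, 18.2% and 16.3% against 7.74%, 18.6%, 29.9% and 32.2% for named genes. These counts describe the probes and carry no test.

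Differences between tissues were tested with limma over all 37868 probes past the filter, with tissue and dose in the model, and called at a Benjamini-Hochberg adjusted p under 0.05 and a difference of at least 1 log2 unit. Nothing in the labels says that samples came from separate animals, so p-values measure only the spread between these samples. Between brain and kidney, 541 locus-named probes were higher in brain and 377 in kidney (37.1% of 2475), where 24.8% and 23.6% of all probes tested were called. Between brain and liver 542 were higher in brain and 717 in liver (50.9%), with 27.6% and 29.0% of all probes called. Between kidney and liver 223 were higher in kidney and 416 in liver (25.8%), with 15.9% and 15.1% of all probes called. In each comparison the share called was below that of named genes (51.0%, 57.9% and 32.3%) and of annotated long non-coding RNA genes (47.4%, 58.2% and 34.2%). Among probes detected on all 8 arrays the shares were 23.4%, 43.5% and 19.5%, against 25.9%, 40.6% and 24% of the non-coding genes. With no filter they were 25.8%, 49.1% and 20.8%, against 23.6%, 57.5% and 20.4%. The order against these genes thus turned with the filter, while named genes stayed higher in both settings. The classes were not matched for level or C. With normexp background correction and quantile scaling the counts were 453, 637 and 240 in place of 918, 1259 and 639. A probe that passed the filter only through the tissue where it is high had to differ, which bears on these counts for every class.

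The split by direction depended on scaling. Brain-higher calls made up 58.9% of the calls against kidney with scaling to the 75th percentile, 47.9% with scaling to the median (467 against 507) and 70.9% with no scaling (669 against 275). Against liver the brain share was 43.1%, 31.5% (460 against 1001) and 83.4% (1022 against 203), and the kidney share against liver 34.9%, 32.2% (214 against 451) and 80.6% (575 against 138). Scaling to the median moved the median difference of all probes by -0.27, -0.31 and -0.04, and no scaling moved it by 0.32, 1.13 and 0.80.

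Counted against both other tissues, 428 locus-named probes (17.3%) were higher in brain, 104 (4.20%) in kidney and 302 (12.2%) in liver, where 20.6%, 7.52% and 10.5% of all probes tested were called. Of the 428 brain probes 202 were above background on no array of kidney or liver and 375 were plain. Without scaling 428, 104 and 281 of these same probes still had their highest mean in that tissue. Liver was the highest tissue of 50.7% of the filtered locus-named probes (36.8% of named genes), but of 14.6% (12.1%) without scaling, so this order has no direction that holds on both scales.

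The loci named next were taken by a rule on the size of the difference. The first of the brain loci that were measured in all tissues was chr5:52998788-53010250_R, 36.0 kb from the Sepsecs probe. It read 5.26, 5.42 and 5.48 on the brain arrays, -3.80, -3.47 and -3.08 on the kidney arrays and -3.14 and -2.94 on the liver arrays. Brain lay 8.84 (SE 0.11) above kidney and 8.42 (SE 0.13) above liver, with limma adjusted p = 1.1e-08 and 2.1e-08. The probe of chr3:127170996-127201096_F, 17.3 kb from Ank2 (ankyrin-B, a membrane adaptor of neurons and heart) on the opposite strand, read 4.67, 4.81 and 4.96 in brain, -4.08, -3.92 and -3.79 in kidney, then -3.51 and -3.49 in liver. The other two were chr7:71093563-71095094_F, 11.5 kb from Klf13, with brain 8.14 (SE 0.12) above kidney, and chr5:121759042-121789992_R, 10.4 kb from Hectd4, with brain 7.07 (SE 0.12) above kidney. All 4 carry the 8-base run printed above, and no brain array of any of them came near a kidney or liver array.

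Among plain probes measured in all tissues, 3 of the 4 with the largest brain difference lay at 1 place on chromosome 3, beside or over Ttll7, a tubulin polyglutamylase of neurons. The probe of chr3:146629425-146649125_F, a locus that holds the Ttll7 probe itself on the same strand, read 4.04, 3.99 and 4.0 in brain, -2.41, -2.48 and -2.35 in kidney, with -2.53 and -2.37 in liver. Its brain level was 6.43 (SE 0.07) above kidney and 6.48 (SE 0.08) above liver (limma adjusted p = 7e-09 and 1.1e-08). The probe of chr3:146645022-146646977_F was 6.67 (SE 0.08) higher in brain than in kidney and that of chr3:146515333-146557069_F 5.33 (SE 0.13). The Ttll7 probe read -0.94, -0.69 and -0.56 in brain and between -4.13 and -3.38 elsewhere, so that probe and those of the 3 loci were highest in brain. Of the other Ttll7 probes, those at 146557429 and 146561262 were above background in brain alone and that at 146603161 on no array. The fourth plain locus, chr14:65205076-65219432_R, lies opposite the probe of Mir124a-1hg, host gene of the neuronal microRNA miR-124. It read 2.34, 2.30 and 2.33 in brain, -2.20, -2.79 and -2.81 in kidney, then -3.01 and -2.17 in liver.

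Of the loci detected in brain and on no array elsewhere, chr17:22815742-22828592_R had the largest lower bound. It read 3.8, 3.86 and 3.98 in brain and between -5.09 and -4.68 elsewhere, at least 234-fold higher in brain than in another tissue. Bounds here set the mean of the bright tissue against the lowest level well above background on each array of the dim tissue, or the probe's own level where that was higher. The probes of chr11:59206727-59207172_R and chr17:32229024-32229663_F were at least 99.1-fold and 97.0-fold higher in brain. Among plain probes the bound was largest for chr7:66874527-67012170_R, which spans the Ipw probe on chromosome 7; Ipw is an imprinted non-coding RNA of the Prader-Willi region. It read 2.33, 2.35 and 2.48 in brain and between -7.01 and -6.18 elsewhere, at least 83.2-fold higher in brain, and the Ipw probe read 3.32, 3.45 and 3.48 in brain and was not above background elsewhere. The locus chr6:36790208-36792056_R, 6.74 kb from Dgki, a diacylglycerol kinase, was at least 60-fold higher in brain.

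In kidney the largest difference measured in all tissues was that of chrX:7327721-7328024_R, 14.8 kb from Tfe3, a transcription factor of lysosome genes. It read -0.65, -0.53 and -0.36 in brain, 3.92, 3.90 and 4.05 in kidney, with 0.97 and 0.83 in liver. Kidney lay 3.07 (SE 0.10) above liver, with limma adjusted p = 9.5e-07, and the tissues did not overlap. The locus chr17:79959134-79972206_F, 39.3 kb from Rmdn2, read -4.23, -3.90 and -3.72 in brain, 0.74, 0.77 and 0.88 in kidney, then -1.90 and -2.28 in liver. The next, chr1:6181200-6204300_R and chr11:119797116-119804012_R, were between -0.97 and -0.77 on kidney arrays and between -4.06 and -2.91 on all others.

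Kidney alone detected chr8:67552315-67561235_R, 15.4 kb from Trim61 on the same strand, with levels of 1.07, 1.53 and 1.35 in kidney and between -7.17 and -5.99 elsewhere, at least 39.6-fold higher. The Trim61 probe was likewise above background in kidney alone, at -2.49, -2.43 and -2.22. The locus chr11:96175764-96176029_F, 6.92 kb from Hoxb4 on the same strand, read 0.59, 0.81 and 0.78 in kidney and was at least 26.4-fold higher there. Hoxb genes are the homeobox genes that pattern the trunk, and adult kidney is known to keep expressing them. The Hoxb4 probe read 1.09, 1.21 and 1.16 in kidney, with -1.87 and -2.15 in liver, and a second locus of the cluster, chr11:96173788-96174352_F, read -2.92, -2.89 and -3.20 in kidney and was above background nowhere else. The last, chr10:69844350-69844784_F, was at least 10.3-fold higher in kidney.

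In liver the probe of chr17:71242333-71273533_F read -0.31, -0.19 and -0.16 in brain, 1.29, 1.39 and 1.21 in kidney, then 5.79 and 5.54 in liver. Liver lay 5.92 (SE 0.09) above brain and 4.40 (SE 0.09) above kidney (limma adjusted p = 2.2e-08 and 1.8e-07). This probe, that of chr9:51905865-51911474_R and that of chr6:146493273-146493932_R carry GT runs, which leaves chr11:117792051-117811334_R, 35.2 kb from Socs3, the feedback inhibitor of cytokine signalling. It read -0.65, -0.60 and -0.45 in brain, -1.80, -1.92 and -1.57 in kidney and 3.63 on both liver arrays, and it has 40% C.

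The brightest plain locus of liver was chr1:193875525-193978800_R, inside which the Rcor3 probes lie. It read 4.09, 4.12 and 4.12 in brain, 4.65, 4.81 and 5.81 in kidney, with 9.18 and 8.93 in liver, with liver 4.88 (SE 0.30) above brain and 3.89 (SE 0.30) above kidney (limma adjusted p = 8.1e-06 and 5.4e-05). The Rcor3 probes did not follow it. The probes of Gstp1 and Gstp2, glutathione transferase genes on chromosome 19, also rose from brain through kidney to liver. Their tissue means were 1.59, 2.47 and 6.64 for Gstp1 and 5.45, 6.25 and 9.47 for Gstp2. Whether the locus-named probe reads RNA of any of these genes was not tested. Other plain liver loci were chr17:26911397-26917047_R, 9.63 kb from Bnip1, at 0.68 and 0.38 in liver and between -3.11 and -2.41 elsewhere, and chr10:120336296-120354471_F, 22.6 kb from Lemd3, at 2.18 and 1.99 in liver and between -1.14 and -0.79 elsewhere. Found in liver alone was chr19:36699712-36763966_R, which spans the Hectd2os probe. It read 2.12 and 1.90 in liver and between -6.80 and -5.71 elsewhere, at least 107-fold higher, while the Hectd2os probe was above background on no array. The loci chr1:71939741-71947891_F and chr8:10886200-10905925_F were at least 53.4-fold and 14.2-fold higher in liver, the latter at -0.32 on the control and -1.40 on the high-dose array.

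**Figure D3:**
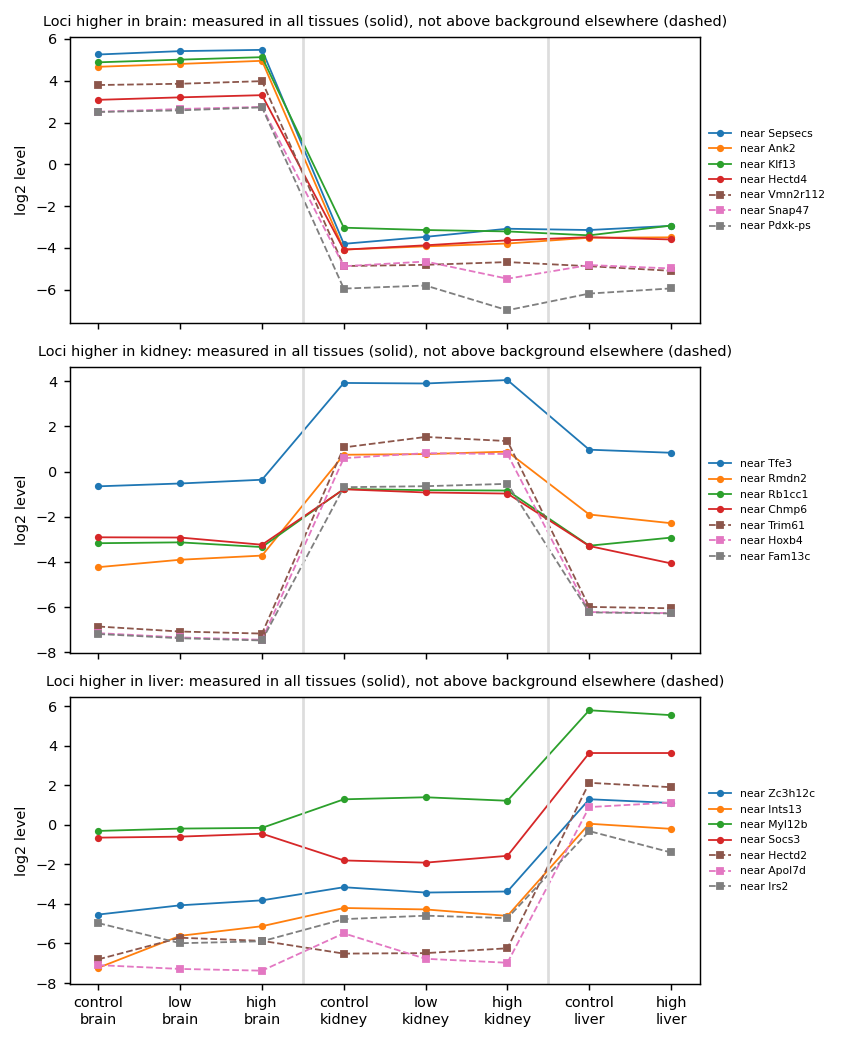
Level (log2, relative to each array's 75th percentile) of the named loci of brain, kidney and liver on the 8 arrays, labelled by the nearest gene; solid lines mark probes measured in all tissues and dashed lines probes above background in 1 tissue. By the rule that picked the loci on these same arrays, each line has its highest mean in its own tissue.

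The run shared by the brain loci was then counted over all probes. It was chosen after the values were seen and was searched on the probe's own strand; the 7-base run lies inside the 8-base run. GTCTTCC occurred in 60 locus-named probes (1.35%) and 289 others (0.554%), and GTCTTCCC in 22 (0.494%) and 75 (0.144%). Of the 22, 20 (90.9%) were at least 4 log2 units higher in brain than in kidney, against 93 of the 4427 without it (2.10%). Among other probes 51 of 75 with the run (68.0%) passed that limit, against 4.78% of those without. The 22 had median levels of 3.66 in brain, -3.83 in kidney and -3.53 in liver, and brain-minus-kidney differences from 0.36 to 10.10 with a median of 7.61. Without scaling 20 of the 22 still passed the limit.

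**Figure D4:**
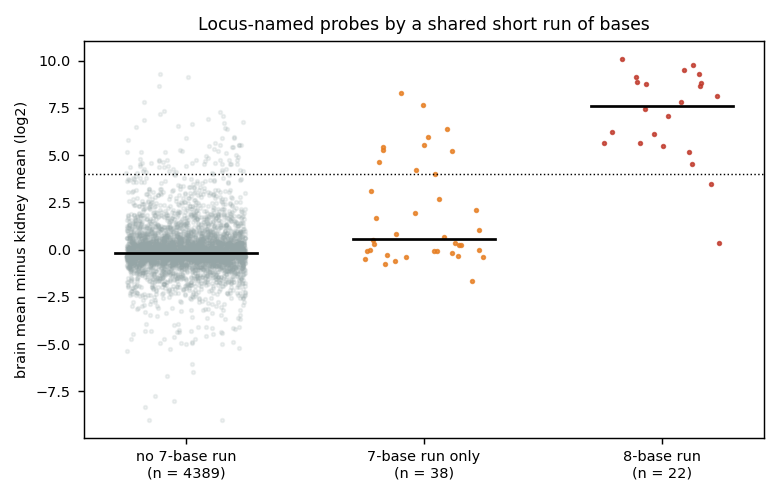
Difference between brain and kidney (log2) of locus-named probes with no 7-base run (4389), with GTCTTCC alone (38) and with GTCTTCCC (22); points are probes, bars are medians and the dotted line is at 4. The probes with the 8-base run lie mostly above the line, with a median of 7.61.

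The 8-base probes stood beside unrelated genes on many chromosomes. The probe of chr11:87841800-87858725_F, near Srsf1, a splicing factor, read 5.55, 5.62 and 5.72 in brain, -3.51, -3.72 and -3.26 in kidney, then -6.04 and -6.09 in liver. The probe of chr2:108456668-108532418_R read 5.96, 6.08 and 6.21 in brain, -4.54, -4.01 and -3.49 in kidney, with -6.13 and -6.20 in liver. The probe of chr10:96098058-96098623_F, 13.1 kb from Btg1, read 3.00, 3.12 and 3.23 in brain, -3.23, -3.06 and -3.06 in kidney, then -3.57 and -3.68 in liver. In each the lowest brain array lay more than 6 log2 units above the highest of the other arrays. The exceptions were chr8:48476637-48492537_F, at 4.04, 4.31 and 4.25 in brain and 3.77, 3.73 and 4.01 in kidney, and chr3:93162669-93163114_R, at 3.06, 3.23 and 3.41 in brain and -0.12, -0.34 and -0.26 in kidney.

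The tag probe with 2 copies of the 7-base run read 8.63, 8.68 and 8.69 in brain, -0.28, -0.17 and 0.35 in kidney, with -3.22 and -2.82 in liver. It lies 1.5 kb from the probe of Cdr1, which is on the R strand, holds 3 copies of the 7 letters on its other strand and was above background on no array. The locus-named probe nearest to it, chrX:58387887-58429166_F, lies 9.79 kb from the tag probe in a locus that also holds the Cdr1os probe. It has no such run and read -1.33, -0.94 and -0.89 in brain, -4.69, -5.04 and -4.42 in kidney, then -5.06 and -5.53 in liver. Of all 113 locus-named probes at least 4 log2 units higher in brain than in kidney, 30 (26.5%) held the 7-base run. Whether the labelled RNA on these probes came from their own loci was not tested.

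Simple repeats showed a second pattern of the same kind. GTGTGTGT occurred in 27 locus-named probes (0.607%) and 255 others (0.489%), and 16 of the 27 (59.3%) were at least 2 log2 units higher in liver than in both other tissues, against 97 (2.19%) without it. Among the others the shares were 45.1% and 3.66%. With 5 GT units in a row it occurred in 10 locus-named probes (0.225%) and 131 others (0.251%). All 10 were highest in liver, by 2.48 to 4.51 with scaling and by 1.68 to 3.71 without, as were 121 of the 131 others (110 without scaling). The repeat of the opposite strand, with 5 AC units in 6 locus-named probes, had medians of 1.60 in brain, 0.18 in kidney and -1.05 in liver. The probe of chr11:60728207-60745369_R read 3.95, 3.97 and 3.89 in brain, 2.57, 2.54 and 2.56 in kidney, with 0.09 and 0.07 in liver, a descending order that 4 of the 6 had with scaling and all 6 without.

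Loci with probes for both strands show what an array of strand-specific probes read on each. Of 832 such loci, both strands were detected at 285 in brain, 226 in kidney and 203 in liver, a single strand at 46.3%, 45.8% and 46.2%, and neither strand at 162, 225 and 245. The F strand alone was detected at 176, 179 and 180 loci and the R strand alone at 209, 202 and 204. Where 1 strand was detected, it was the one with more C in 64.7% of 385 loci in brain, 66.7% of 381 in kidney and 71.1% of 384 in liver, and both strands had equal C at 18, 16 and 16 of these.

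At 47 loci both strands were called highest in some tissue, and at 26 of them the tissues differed. Over all locus-named probes 428, 104 and 302 were called highest in brain, kidney and liver. How often unrelated probes would differ was not computed. At chr13:70745306-70837331, 35 kb from Ice1, the R probe read 3.52, 3.58 and 3.73 in brain, -4.22, -4.21 and -4.10 in kidney, then -5.06 and -4.34 in liver, and carries the 8-base run. The F probe read 0.82, 0.84 and 0.93 in brain, 1.15, 0.91 and 0.82 in kidney, with 2.15 and 1.98 in liver. These levels are relative to 75th percentiles of 919 to 954 units in brain and 427 to 435 in liver. The order without scaling is not given for this probe. At chr9:51905865-51911474, near Zc3h12c, the F probe was highest in brain (1.12, 0.86 and 1.07), whereas the R probe, with its GT run, was highest in liver (1.29 and 1.10). At chr5:52461266-52541416 the R probe, also with a GT run, read 3.8 and 3.62 in liver and between -0.66 and 0.15 elsewhere, and the F probe, with the 7-base run, was highest in brain. The fourth, chr12:5303823-5379098, had plain probes on both strands: the R probe read 0.89, 1.25 and 0.85 in brain and at most -3.18 elsewhere, and the F probe was above background in kidney alone, at -3.30, -3.32 and -3.34.

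The highest tissue of a probe was set beside that of its neighbours; these shares are counts with no test. Of 140 locus strands with at least 2 detected probes, 93 (66.4%) had the same highest tissue in every probe. With the nearest probe of a named gene it was the same for 183 of 347 (52.7%) within 5 kb, 481 of 1079 (44.6%) between 5 and 50 kb and 253 of 629 (40.2%) beyond. Nearest pairs of named genes gave 39.0%, 41.3% and 41.1% over the same distances. Probes on the same strand gave 54.3%, 46.6% and 40.0%, and plain probes 52.9%, 45.7% and 42.8%. Without scaling the shares were 61.7%, 51.3% and 51.8% with the nearest gene, 46.3%, 47.5% and 48.2% between genes, and 69.3% within a locus strand.

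A list of 36 well-studied long non-coding RNA genes served as a reference for the class. Of these, 34 were on the array, 27 passed the filter and 18 were called between tissues by limma (adjusted p under 0.05 and a difference of at least 1): 12 were higher in brain than in kidney and 2 lower, 11 were higher in brain than in liver and 4 lower, and 6 each way differed between kidney and liver. Over all probes tested, 48.5%, 56.6% and 31.0% were called in these comparisons. Each gene is given by 1 probe, although the array holds 5 for Meg3, 4 for Miat, 3 for Neat1 and 2 for Pantr1. Miat, a nuclear RNA of neurons, read 5.46, 5.33 and 5.55 in brain, 9.12 above kidney. Meg3, the imprinted RNA, read 6.56, 6.5 and 6.56 in brain, -1.96, -2.76 and -3.13 in kidney, then 0.16 and 1.39 in liver, with brain 9.16 (SE 0.40) above kidney. Neat1, the paraspeckle RNA, went the other way at 1.94, 1.80 and 1.85 in brain, 5.24, 5.08 and 5.12 in kidney, with 4.49 and 4.23 in liver, with brain 3.28 lower than kidney (difference -3.28, SE 0.05, limma adjusted p = 1.3e-08). Pantr1, named for a neural transcription factor beside it, read 3.90, 3.84 and 4.03 in brain, 1.29, 1.55 and 1.53 in kidney and was not above background in liver.

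Lead exposure was compared first over tissues. With limma and Benjamini-Hochberg adjustment over all 37868 probes, 0 locus-named probes were called for high dose against control and 0 for low dose (0% of all probes in each). The smallest adjusted p of a locus-named probe was 0.794 at high dose and 1.0 at low dose. At an unadjusted p under 0.05 there were 116 (4.69% of 2475, 5.53% of all probes) at high dose and 71 (2.87%, 2.44% of all probes) at low dose. With 3 residual degrees of freedom and 1 array per group, a change in a single tissue could not be tested.

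Single-tissue differences are therefore given by size: a probe well above background and unsaturated on both arrays whose levels differed by at least 1 log2 unit and by more than 3 times the array error, the error the scanner software gives each spot. In brain 6 of 2251 locus-named probes were higher (0.267%) and 7 lower (0.311%) at low dose, where 0.447% and 0.300% of all probes were. At high dose 3 of 2275 were higher (0.132%) and 8 lower (0.352%), where 0.192% and 0.253% of all probes were. In kidney 3 of 1942 were higher (0.154%) and 11 lower (0.566%) at low dose, where 0.223% and 0.258% of all probes were, and 11 of 1997 higher (0.551%) and 23 lower (1.15%) at high dose, where 0.928% and 0.494% were. In liver 3 of 1732 were higher (0.173%) and 10 lower (0.577%) at high dose, where 0.393% and 0.457% of all probes were. In brain and liver these shares were near those of all probes or below them. In kidney the lower share of locus-named probes was above that of all probes at both doses, which use the same control array, and this difference was not tested. Few of these differences stood under normexp correction with quantile scaling, which left 2 and 1 in brain at low and high dose, 0 and 6 in kidney and 2 in liver.

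Most differences were small. The SD of the difference from control over locus-named probes was 0.25 and 0.24 at low and high dose in brain, 0.28 and 0.36 in kidney and 0.28 in liver, against 0.25, 0.23, 0.23, 0.33 and 0.27 in named genes and a median array error near 0.22. Within bins of mean level the interquartile range of locus-named probes was 0.963 times that of named genes as a median over 20 bins, from 0.822 to 1.43, and above 1 in 8 of them. The kidney low-dose array went its own way, with ratios of 1.07, 1.07, 1.18 and 1.43 from the dimmest bin to the brightest. In kidney the locus-named probes were shifted downward, with medians of -0.07 at low and -0.12 at high dose against -0.00 and -0.02 in named genes. The shift was -0.15 and -0.17 in those with more than 30% C and 0.00 and -0.05 in those with at most 20% C; in named genes with more than 30% C it was -0.07 and -0.08.

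**Figure D5:**
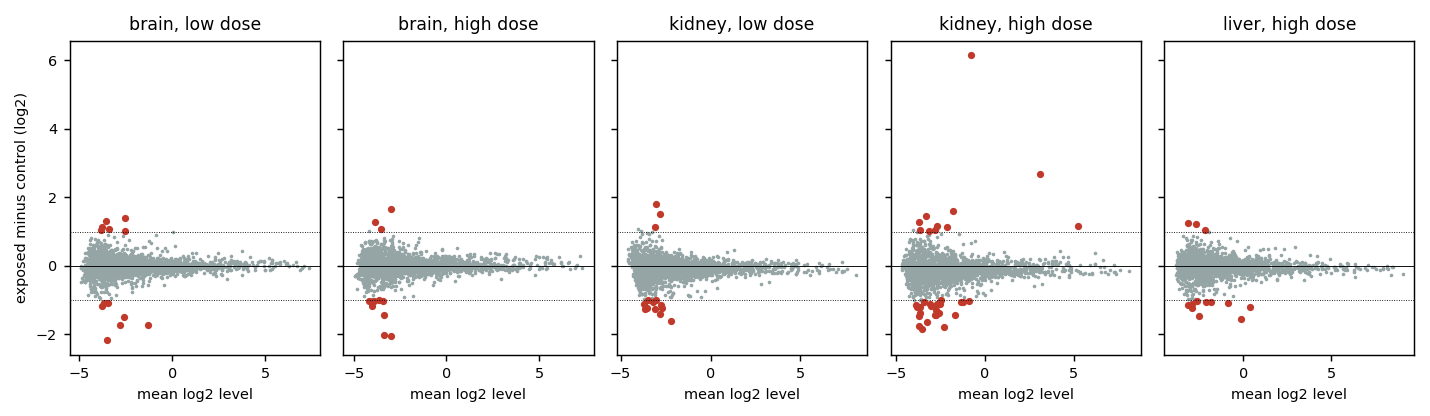
Difference of each exposed array from its tissue control (log2) against the mean level of both arrays for locus-named probes, 1 panel for each of the 5 comparisons; red points passed the size rule and dotted lines mark 1 and -1. The highest point of the kidney high-dose panel, at 6.15, is chr9:78107225-78118850_F.

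In kidney at high dose the 2 locus strands that stood out overlap on the F strand of chromosome 9, so they are not separate regions. The probe of chr9:78107225-78118850_F read -3.84 on the control, -3.78 on the low-dose and 2.31 on the high-dose kidney array, 1.18 and 1.67 on the liver arrays and was not above background in brain. The high-dose kidney array was 6.15 above its control (array error 0.27). The probe of chr9:78104935-78116974_F read 1.78, 1.80 and 4.45 in kidney, 2.67 above control (array error 0.20), 4.15 and 4.24 in liver and at most -4.78 in brain. In both, the high-dose kidney array stood above the liver arrays whereas the low-dose arrays were 0.06 and 0.02 from control. The second probe of chr9:78107225-78118850_F was well above background on 0 arrays.

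Those 2 loci lie 36.4 to 62.1 kb from the probes of Gsta2 and Gm10639, an alpha-class glutathione transferase and a gene of the same family. Glutathione transferases join glutathione to foreign compounds and are known to be induced by them. The Gsta2 probe read 0.87, 0.89 and 3.51 in kidney, 2.64 above control at high dose, and 2.38 and 2.66 in liver, and the Gm10639 probe read 2.38, 2.40 and 5.06 in kidney, then 3.90 and 4.15 in liver. The longest run shared between the locus-named and the gene probes was 10 bases. These are the last 10 of the chr9:78107225-78118850_F probe and the first 10 of both gene probes. Whether the locus-named probes read RNA of these genes was not tested. The plain liver locus chr1:193875525-193978800_R was 1.16 above control (array error 0.20) in the same array, at 4.65, 4.81 and 5.81 in kidney. The Gstp1 probe, of a pi-class transferase, read 2.02, 2.14 and 3.25 in kidney, 1.23 above control, and 6.79 and 6.49 in liver, with 1.63, 1.60 and 1.53 in brain; whether the locus-named probe reads its RNA was not tested.

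The locus chr17:15100982-15115630_R had 2 probes, both higher at high dose in 2 tissues. The second probe read -4.56, -4.65 and -1.79 in brain, at least 6.82-fold higher at high dose, and -2.57, -2.84 and -0.96 in kidney, 1.61 above control (array error 0.22). The first read -3.81, -4.49 and -2.16 in brain, 1.65 above control (array error 0.27), and -1.89, -2.11 and -0.97 in kidney, 0.92 above control. In liver the probes read -4.24 and -4.67 and -3.43 and -3.62, in that order, with the high-dose array the lower. Both high-dose arrays stood above the other 2 arrays of their tissue. These are the arrays on which the sum of sperm formation genes was 15.7 and 29.0, and the part of other cells in this difference was not tested. The probe of Phf10, the nearest gene, that lies at 15082055 differed by 0.12 and 0.10 on those arrays.

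The second locus past the size rule in 2 tissues was chr16:23992037-24001037_R, 26.9 kb from Bcl6, the transcriptional repressor. It read -2.47, -3.09 and -3.64 in kidney, 1.18 lower at high dose than in the control (-1.18, array error 0.27), and -1.76 and -3.22 in liver (-1.47, array error 0.29). The F strand of the locus read -0.06, -0.45 and -0.80 in kidney, with 1.01 and -0.19 in liver (-1.20, array error 0.21), and the adjoining chr16:23989160-23992539_F was 1.20 lower in kidney (-1.20) and at least 4.77-fold lower in liver. Exposed arrays were below their control in kidney and liver for all of these probes. The Bcl6 probes disagreed: the one at 23965160 read 2.58, 2.01 and 1.64 in kidney, then 2.45 and 1.5 in liver, whereas the one at 23967780 was 2.36 higher in kidney and 1.13 higher in liver at high dose than in the control.

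Further kidney differences were lower on both exposed arrays. Of the 11 locus-named probes lower at low dose, 8 passed the rule at high dose too, against the same control array. The adrenal markers were also lower on both exposed arrays than on that control (sums of 4.96, 0.868 and 0.962), and their part in these differences was not tested. The probe of chr14:47978277-47985238_F, 21.8 kb from Lgals3 (galectin-3, a sugar-binding protein), read -1.41, -3.03 and -3.19, a difference of -1.62 and -1.78 (array error 0.24 each). The probe of chr1:64232564-64349617_R, near Klf7, was -1.27 and -1.63 from control, and that of chr5:31856417-31916317_R -1.26 and -1.46. A locus near Cdkn1a and Srsf3, chr17:29192453-29216073_R, was -1.01 and -1.11. At high dose alone the probe of chr12:117623500-117643575_R was -1.84 (array error 0.37) and that of chr14:105497388-105511063_R -1.76 (array error 0.35) from control. The higher ones at low dose were led by chr4:11049325-11072075_R, 41.0 kb from the p53 target Trp53inp1, which read -3.96, -2.16 and -4.84, so the high-dose array did not share it.

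In brain the differences of probes measured on both arrays were at most 2.18 in size. The probe of chr11:82588507-82594501_R, 10.6 kb from Lig3, a DNA ligase, read -2.39 on the control, -4.56 on the low-dose and -4.40 on the high-dose array (-2.18, array error 0.31, and -2.02, array error 0.29). The probe of chr4:35106125-35127700_R, 10.4 kb from Ifnk, an interferon gene, read -1.95, -3.68 and -3.99 (-1.73 and -2.04). These were 2 of the 4 brain loci past the rule at both doses, all lower and all against 1 control array, on which pituitary markers summed to 2.44 against 0.917 and 0.854 on the exposed arrays. The part of other tissue in these differences was not tested. Other low-dose differences did not recur: chr7:91558475-91733625_F, 11.3 kb from Fah, read -0.42, -2.14 and -0.74, and chr4:128060015-128075590_R read -3.22, -1.83 and -2.62. Striatal markers summed to 61.8, 187 and 39.6 on the brain arrays, and hippocampal markers had median levels of -0.32, -2.29 and -0.77. The part of brain region in these differences was not tested. The locus chr2:168136389-168136560_R was at least 8.16-fold lower at low and 7.75-fold lower at high dose. At chr3:131128972-131163308_F 2 probes of the same strand went opposite ways at high dose, 1.29 higher (array error 0.33) and 1.02 lower (-1.02, array error 0.32).

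In liver the 3 higher probes were 1.04 to 1.25 above control. Among probes measured on both arrays the largest difference was that of chr2:67836003-67836461_F, at 0.67 on the control and -0.89 on the high-dose array (-1.56, array error 0.21). The probe of chr17:46204283-46221215_R, 42.7 kb from Vegfa, the vessel growth factor, was -1.23 (array error 0.31) from control. Among the reference list, Meg3 differed by -1.18 in kidney and 1.24 in liver at high dose, and Rian by 1.01 in liver. At low dose Meg3 was -0.80 from the same kidney control array, short of the size limit. Adrenal markers summed to 4.96 on that control and to 0.868 and 0.962 on the exposed kidney arrays. Their part in the Meg3 difference was not tested. In brain at low dose Mhrt differed by 2.07 and Six3os1 by 1.65. On the brain arrays in order of dose Mhrt read -2.89, -0.81 and -3.40 and Six3os1 -4.13, -2.48 and -5.28. The striatal markers summed to 61.8, 187 and 39.6 on these arrays, and the part of brain region in these differences was not tested.

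Probes above background on 1 of the 2 arrays give lower bounds alone. In brain 179 locus-named probes were above background on the low-dose array and not on the control, 8 of them by at least 1 log2 unit, and 68 the other way, 15 of them by that much; at high dose these were 246 (13) and 44 (12). In kidney they were 73 (20) and 255 (14) at low and 115 (22) and 200 (20) at high dose, and in liver 143 (12) and 126 (14). The numbers per direction followed the overall detection of the arrays, which was highest on the high-dose brain array and lowest on the low-dose kidney array of their tissues.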

How the data were processed

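The 8 one-colour Agilent arrays (Cy3, 60-base probes) shared 1 slide. Per the submitters' processing notes, the authors scanned with Agilent Feature Extraction 12.0.3.1 and deposited linear spot intensity. Per the file headers, this intensity has its background subtracted and a spatial trend removed, with no scaling from array to array. The deposited files also flag saturated, uneven and outlying spots and those well above background. Columns of the deposited value table are linear intensity and equal the processed signal divided by a constant per array, with medians of 0.112, 0.113 and 0.114 (brain), 0.0940, 0.0905 and 0.0936 (kidney) and 0.0915 and 0.0918 (liver).

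Control, non-uniform and outlier spots were left out, spots of a probe averaged on the log2 scale, and the 75th percentile of each array subtracted. Probe positions are mm9, as the files give them. Of the probes with gene names or accessions, 32989 were updated by accession and 10747 by symbol through a RefSeq table, and 8420 were not matched.

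Tissue and dose were fitted with limma 3.58.1 (R 4.3.3), moderated with a trend, over 37868 probes well above background on every array of at least 1 tissue. P-values were adjusted by Benjamini-Hochberg over all of them; the fit was tested on simulated data. Differences of single exposed arrays have no test. Other calculations used Python 3.11.15. Named loci are the 4 with the largest difference per tissue measured everywhere, the 3 with the largest lower bound found in that tissue alone, the 4 largest per dose comparison and direction, with the 2 largest bounds, loci past the rule in 2 tissues, and up to 4 with strands highest in different tissues. Alternatives were normexp with an offset of 50 and quantile scaling, median and no scaling, other filters and limits, and plain probes. The members and lists were chosen with earlier results of these data known, and the shared runs, plain probes and C bins after values had been seen. Sequence beyond the probes was not used here.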

Additional observations from a re-analysis of the deposited data

Results flagged for a closer look

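At 2 loci the high-dose array moved past the size limit in opposite directions in 2 tissues, each with 1 exposed and 1 control array, and the difference between tissues was not tested. The probe of chr13:28537223-28539860_R differed by 1.07 in brain (from -4.07 to -3.01) and by -1.43 in kidney (from -2.08 to -3.51). The probe of chr1:71730016-71740391_F differed by -1.21 in kidney (from -3.20 to -4.40) and by 1.25 in liver (from -3.72 to -2.47). With normexp correction and quantile scaling the brain difference of the chr13 locus was 0.34 and the liver difference of the chr1 locus 0.70, both below the limit of 1.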

How the results depend on the processing

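No paired analysis was possible because each group has 1 array and so the groups share a single replicate number. The slide could not be tested as a batch, since all 8 arrays lie on it. Calls between brain and kidney, brain and liver, and kidney and liver (918, 1259 and 639 locus-named probes) were 453, 637 and 240 with normexp and quantile scaling, and 357, 664 and 298 among probes detected on all 8 arrays; with no filter the second was 2183. Leaving out 1 array gave 901 to 926, 1205 to 1259 and 598 to 658, and 0 calls for dose. Median or no scaling, tissue alone, 1 probe per locus and plain probes kept each count within 1.5 times. Probes past the size rule (13 and 11 in brain at low and high dose, 14 and 34 in kidney, 13 in liver) were 2, 1, 0, 6 and 2 with normexp, 23, 24, 28, 55 and 26 with no filter, 1, 0, 0, 8 and 3 with signals at least 4 times the lowest, and 27, 25, 37, 73 and 28 at 1.5-fold. The detection gap of -18.6 points was -7.97 with the scanner's weaker flag (positive and significant), -22.5 against protein-coding accessions, -13.0 per locus with any probe and -22.4 for plain probes. The share found in 1 tissue (13.0%) was 3.73% with the weaker flag, 23.4% on control arrays alone and 15.1% for plain probes. That of named genes (11.9%) was 4%, 17% and 12.3%, so with the weaker flag locus-named probes stood below them. The spread ratio of 0.963 was 1.21 without bins, and detection of 1 strand (46.1%) was 36.5% with the weaker flag and 45.4% for plain probes. The share of nearest genes within 5 kb with the same highest tissue (52.7%) was 61.7% with no scaling. With normexp and quantile scaling 28 of the 71 results for single loci fell below the limit. No other setting left one below it, and of the 284 alternatives in all, 0 reversed. For dose differences 1 of these settings, the deposited value table, is the processed signal up to a constant per array and could hardly move them. Dim signal over background limits the precision, and 1 array per group gives no replicate error.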
